A study of Homo sapiens with 2 samples.

Results

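Integrins are cell surface receptors made of 1 alpha and 1 beta chain that bind matrix proteins outside the cell and actin-linked adaptors inside it. Laminins are basement membrane proteins made of 1 alpha, 1 beta and 1 gamma chain, and several integrins bind them. In glioma, laminins line the blood vessels along which tumour cells move, and integrins with the beta 1 or alpha V chain are their usual contacts with the matrix. The chains were taken from the deposited gene table by symbol and biotype, as all protein-coding genes named ITGA or ITGB with a number, the lettered alpha chains ITGAD, ITGAE, ITGAL, ITGAM, ITGAV and ITGAX, and LAMA, LAMB or LAMC with a digit. This gave 37 genes of the 58735 in the table, 25 integrin chains and 12 laminin chains. The platelet chain ITGA2B, whose symbol ends in a letter after the number, was not among them.

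The RNA came from SF-539, a human GBM cell line, transduced with pGIPZ lentivirus and selected with puromycin in both conditions. The shControl cells carried the pGIPZ control and the shFKBP9 cells an shRNA against FKBP9, which encodes a prolyl isomerase of the endoplasmic reticulum. Each condition had 1 library, so no difference below has a replicate check and no test between conditions was possible. How many clones were kept, and which FKBP9 shRNA was sequenced, is not given in the sources used here. The deposited values are FPKM, fragments scaled by gene length and library size, from which the fragments on each gene could be recovered as whole numbers. On genes lay 18116873 fragments in shControl and 17158514 in shFKBP9, and 0.522% and 0.553% of them lay on integrin and laminin chains. FKBP9 itself had 4659 fragments (49.8 FPKM) in shControl and 415 (4.68 FPKM) in shFKBP9, which left 9.39% of its level (log2 ratio -3.38). Of the glial and glioma markers looked at, VIM stood at 277 and 295 FPKM and CD44 at 48.6 and 55.6, whereas the astrocyte gene GFAP had 43 and 29 fragments, SOX2 4 and 7, and AQP4 0 in both libraries. The mesenchymal gene COL1A1 stood at 837 and 884 FPKM. In such bulk RNA, fewer cells that express a gene and less of its RNA per cell cannot be told apart.

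Of the 21 integrin chains on which both libraries together had 10 or more fragments, 17 had a ratio of shFKBP9 to shControl above 1, and of the 10 such laminin chains 9 had one below 1. Of all 17105 genes with that many fragments, 8012 had a ratio above 1 and 9092 one below. Among chains that reached 1 FPKM in either library, ITGA7 and ITGB8 had the largest ratios above 1, both under 2-fold. ITGB8 passed this minimum only through shFKBP9, where it was higher (0.776 FPKM in shControl and 1.04 in shFKBP9). Changes are given as the log2 ratio of shFKBP9 to shControl with 0.1 added to both FPKM. Each is followed by the exact 95% interval of the fragments without that addition, which covers counting error only. Of the 37 chains, 17 reached 1 FPKM in either library, 12 integrins and 5 laminins. Among these 0 were past 2-fold in either direction, against 2.02% of all genes with that minimum that were higher and 2.19% that were lower, and 0.213% and 0.193% of protein-coding genes. The log2 ratios of the 17 had a median of 0.10. The median of all 12741 genes with that minimum was -0.02. The 12 integrins had a median of 0.17 and the 5 laminins one of -0.10.

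The interval lay above 0 for 9 of the 31 chains with at least 10 fragments and below 0 for 7, against 13.8% and 16.9% of all 17105 genes with that many fragments and 16.7% and 20.3% of the protein-coding ones. All 9 chains above 0 were integrins, ITGA1, ITGA2, ITGA3, ITGA7, ITGAV, ITGAX, ITGB1, ITGB5 and ITGB8. Of the 7 below 0, ITGA5 was an integrin and the other six were laminins, among them LAMA1, LAMA5, LAMB1, LAMB2 and LAMC1. Thus 9 of 21 integrins lay above and 1 below, and 0 of 10 laminins lay above and 6 below. Deeper genes have narrower intervals, and among all genes with at least 10000 fragments 35.1% lay above 0 and 41.8% below. Under the median ratio scaling, 9 chains stayed above 0 and 4 below, without ITGA5, LAMA1 and LAMC1. By an exact binomial test of the fragments of these libraries with Benjamini-Hochberg adjustment over all genes, 9 were higher and 3, LAMA5, LAMB1 and LAMB2, lower (9.93% and 11.8% of all genes). The difference between the families was not tested, since the chains of 1 library are not replicates. Most mesenchymal markers, like most integrins, were higher in shFKBP9. Of 7 such markers, whose FPKM summed to 1351 in shControl and 1470.3 in shFKBP9, 6 had at least 10 fragments, and the interval lay above 0 for 5 and below 0 for 0, against 13.8% and 16.9% of all genes. All 5 had over 1000 fragments. At 1000 to under 10000 fragments 22.8% of all genes lay above 0, and at 10000 or more 35.1%. The log2 ratio was 0.63 for TAGLN and 0.56 for ACTA2, both actin-associated genes of smooth muscle and myofibroblasts. It was 0.14 for COL1A2 and for PDGFRB, and 0.08 for COL1A1. COL3A1 had 42 fragments in each library, with an interval that included 0, and THY1 had 3 and 1. Their part in the integrin values was not tested.

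**Figure D1:**
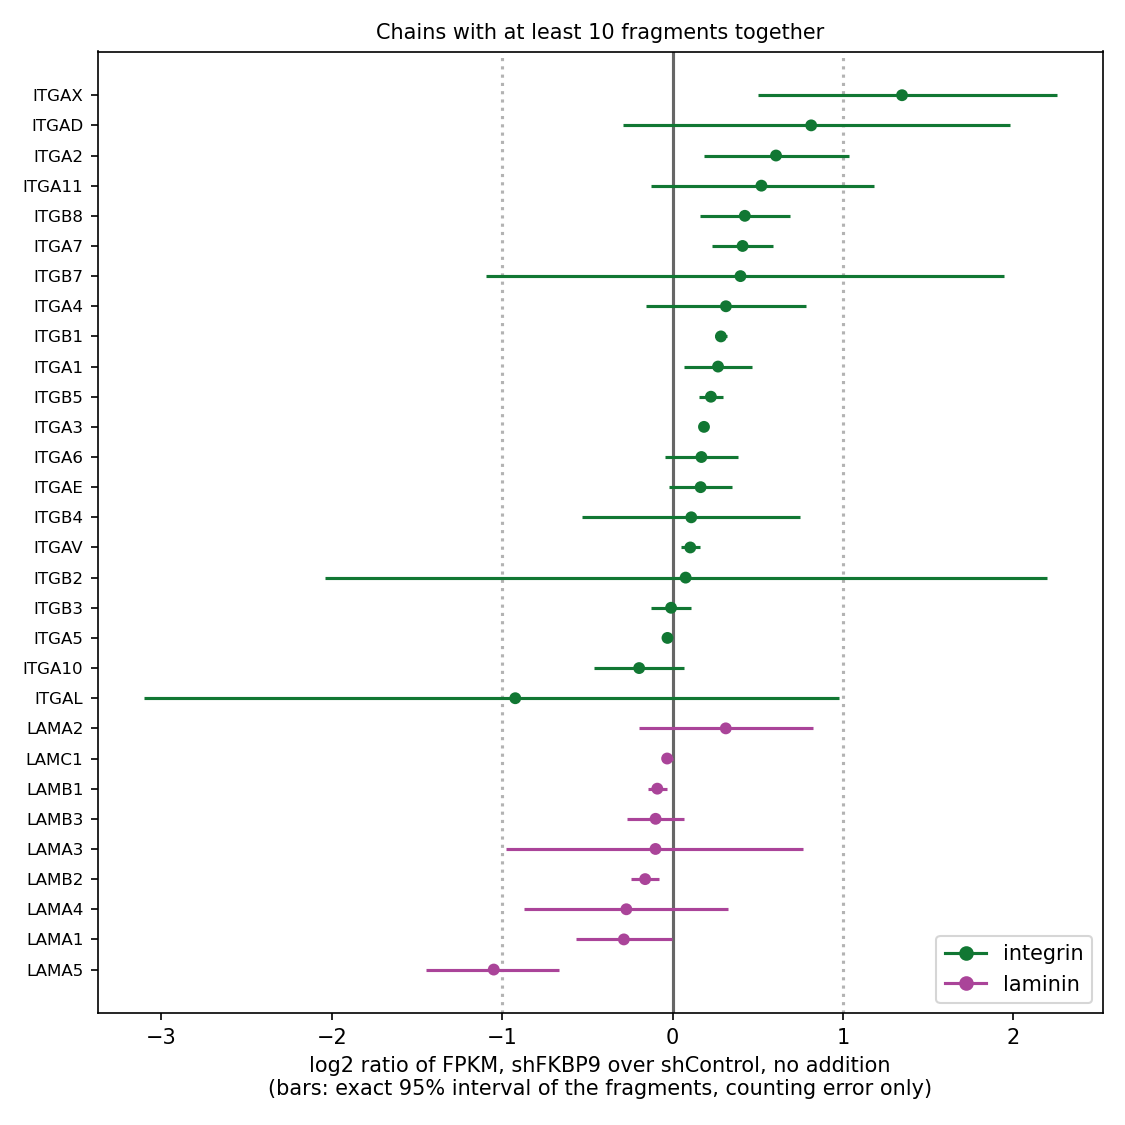
Log2 ratios of the shFKBP9 over the shControl library, with nothing added to FPKM, for 30 of the 31 chains with at least 10 fragments together. Points are the ratios from 1 library per condition, and bars are exact 95% intervals of the fragments, which cover counting error only. Integrin chains (green) lie mostly to the right of 0 and laminin chains (purple) mostly to the left, with ITGAX and LAMA5 the farthest out among chains whose interval lies off 0.

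The beta 1 chain ITGB1, the partner of most matrix-binding alpha chains, lies on chromosome 10 of hg38 from 32900319 to 33005792. It had 11414 fragments and 105 FPKM in shControl and 13175 fragments and 128 FPKM in shFKBP9, a log2 ratio of 0.28 (95% interval 0.25 to 0.32). Of the 559 protein-coding genes with at least 10000 fragments, 3.76% had a log2 ratio at least as high. Of 37 windows of 100 bases along its canonical GENCODE release 44 transcript, 5 also occur in its pseudogene ITGB1P1, so a part of its reads may be shared.

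LAMC1, the gamma chain of most laminins, lies on chromosome 1 from 183023460 to 183145592. It had 16814 fragments and 110 FPKM in shControl and 15595 and 108 in shFKBP9, a difference near 0 (log2 ratio -0.03, 95% interval -0.06 to -0.0003). LAMA5, the alpha chain of laminins found under many epithelia and endothelia, lies on chromosome 20 from 62307955 to 62367312. It had 179 fragments and 0.692 FPKM in shControl and 82 fragments and 0.334 FPKM in shFKBP9. Its log2 ratio was -0.87, or -1.05 with nothing added (95% interval -1.44 to -0.66), the lowest of the laminins. Of the 4581 protein-coding genes with 100 to under 1000 fragments, 0.349% had a log2 ratio as low. ADRM1, which overlaps LAMA5 on the opposite strand, had 3596 and 3268 fragments. Of the 114 windows of the LAMA5 transcript, 0 occur in transcripts of other genes.

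The promoters of ITGB1 and LAMC1, each the highest of its class, and of LAMA5, with the largest difference among laminins, are shown. Those of ITGA5, the highest alpha integrin in shControl, and LAMB1, the highest beta laminin, are not printed. RefSeq promoter sequences on GRCh38.p14 were matched by symbol for 25 of the 37 chains, with 32 start sites. The 250 bases before the start are given 5′ to 3′ on the strand of the gene. Capitals mark the GC box GGGCGG on either strand, the only one of 4 motifs found in these windows. For ITGB1, which has 2 start sites in the table, the upstream one is shown (chr10:32958231-32958480, minus strand), followed by LAMC1 (chr1:183023170-183023419, plus strand) and LAMA5 (chr20:62367313-62367562, minus strand).
ITGB1: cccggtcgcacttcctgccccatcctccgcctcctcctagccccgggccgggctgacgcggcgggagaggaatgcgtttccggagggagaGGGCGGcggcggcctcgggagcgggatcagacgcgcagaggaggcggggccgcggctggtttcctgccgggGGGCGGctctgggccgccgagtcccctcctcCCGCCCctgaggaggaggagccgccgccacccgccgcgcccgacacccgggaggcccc
LAMC1: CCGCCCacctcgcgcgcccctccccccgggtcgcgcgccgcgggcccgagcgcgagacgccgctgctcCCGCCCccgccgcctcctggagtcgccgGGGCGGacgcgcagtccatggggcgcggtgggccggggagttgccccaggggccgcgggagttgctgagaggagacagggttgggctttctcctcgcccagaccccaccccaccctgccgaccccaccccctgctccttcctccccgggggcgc
LAMA5: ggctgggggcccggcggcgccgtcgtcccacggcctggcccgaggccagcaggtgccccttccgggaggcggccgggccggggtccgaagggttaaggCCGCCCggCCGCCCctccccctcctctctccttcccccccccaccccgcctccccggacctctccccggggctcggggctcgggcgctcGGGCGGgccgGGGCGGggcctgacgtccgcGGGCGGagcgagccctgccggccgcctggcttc

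The ITGB1 window held 3 GC boxes and 78.4% G and C, that of LAMC1 3 and 79.6%, and that of LAMA5 5 and 82.8%. The downstream start of ITGB1 (chr10:32935559-32935808), not printed, held 0 GC boxes, 3 TATAAA matches and 41.6% G and C. At least 1 GC box stood in 17 of the 32 windows (53.1%), against 42.6% of all 35116 promoters in the table. The TATA box TATAAA was found in 2 windows (6.25%, against 10.7%), CCAAT in 4 (12.5%, against 32%) and the AP-1 site TGANTCA in 2 (6.25%, against 6.57%), each searched on both strands. A match is only a match of letters, and none of these windows was measured here.

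Among the alpha chains that pair with beta 1 and bind collagens, all 4 were detected, at low levels. ITGA1 had 383 fragments (1.14 FPKM) in shControl and 437 (1.37 FPKM) in shFKBP9, with a log2 ratio of 0.25 (95% interval 0.07 to 0.47). ITGA2 had 81 fragments (0.566 FPKM) and 117 (0.862 FPKM), with a log2 ratio of 0.53 (0.19 to 1.03), and both chains were therefore higher in shFKBP9 beyond counting error. ITGA10 was at 2.33 and 2.04 FPKM and ITGA11 at 0.183 and 0.263 FPKM, and the intervals of both included 0. ITGA1 and ITGA2 are neighbours on chromosome 5, with 30115 bases between them. PELO overlaps ITGA1 on the same strand and shares 4 of the 107 windows of its transcript, and it had 814 and 793 fragments.

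The laminin-binding alpha chains, which pair with beta 1 and, in the case of ITGA6, also with beta 4, were all higher in FPKM in shFKBP9. ITGA3, on chromosome 17 from 50055968 to 50090481, had 24158 fragments (136 FPKM) in shControl and 26031 (155 FPKM) in shFKBP9. Its log2 ratio was 0.18 (0.16 to 0.21), a value reached by 10.2% of protein-coding genes of that depth. ITGA7, known from muscle, had 468 fragments (4.06 FPKM) and 590 (5.39 FPKM), and its log2 ratio of 0.40 (0.23 to 0.59) was the highest of the 17 chains with at least 1 FPKM. Of the 5739 protein-coding genes with 1000 to under 10000 fragments, 1.85% had a ratio as high. BLOC1S1, which overlaps ITGA7 on the opposite strand, had a log2 ratio of 0.38 (0.14 to 0.64). Of the 41 windows of the ITGA7 transcript, 0 occur in transcripts of other genes. Sharing of reads between these genes was not otherwise tested. ITGA6 had 2.93 and 3.30 FPKM, and its interval (-0.05 to 0.38) included 0.

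The alpha chains that recognise the RGD tripeptide of fibronectin and vitronectin differed little between the libraries. ITGA5, the fibronectin receptor chain on chromosome 12 from 54395261 to 54419460, had 20714 fragments (151 FPKM) in shControl and 19240 (148 FPKM) in shFKBP9, a log2 ratio of -0.03 (-0.06 to -0.0014). ITGAV had 4872 fragments (32.8 FPKM) and 4965 (35.2 FPKM), a log2 ratio of 0.10 (0.05 to 0.16). ITGA8 had 0 fragments in both libraries, where 3 fragments would be 0.0220 and 0.0232 FPKM. In FPKM, ITGA5 led all chains in shControl and ITGA3 led them in shFKBP9, the ratio of ITGA3 to ITGA5 FPKM being 0.902 and 1.05. Of the chains that bind VCAM1 and other ligands, ITGA4, which shares 40.3% of its windows with CERKL, was at 0.510 and 0.634 FPKM and ITGA9 had 5 and 3 fragments.

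Of the beta chains that pair with alpha V, ITGB5 and ITGB8 were higher in shFKBP9 and ITGB3 was level. ITGB5, a vitronectin receptor chain, had 3250 fragments (27.8 FPKM) and 3602 (32.5 FPKM), a log2 ratio of 0.22 (0.16 to 0.29). ITGB8, which with alpha V activates latent TGF-beta, had 213 fragments (0.776 FPKM) and 271 (1.04 FPKM), a log2 ratio of 0.38 (0.16 to 0.69). ITGB3 had 1270 and 1197 fragments and 16.0 and 15.9 FPKM, a log2 ratio of -0.01 (-0.12 to 0.11), although 37.3% of the windows of its transcript also occur in an overlapping gene model. ITGB6, found mainly in epithelia, had 2 and 6 fragments. ITGB4, the hemidesmosome chain, was at 0.351 and 0.379 FPKM, with an interval that included 0.

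**Figure D2:**
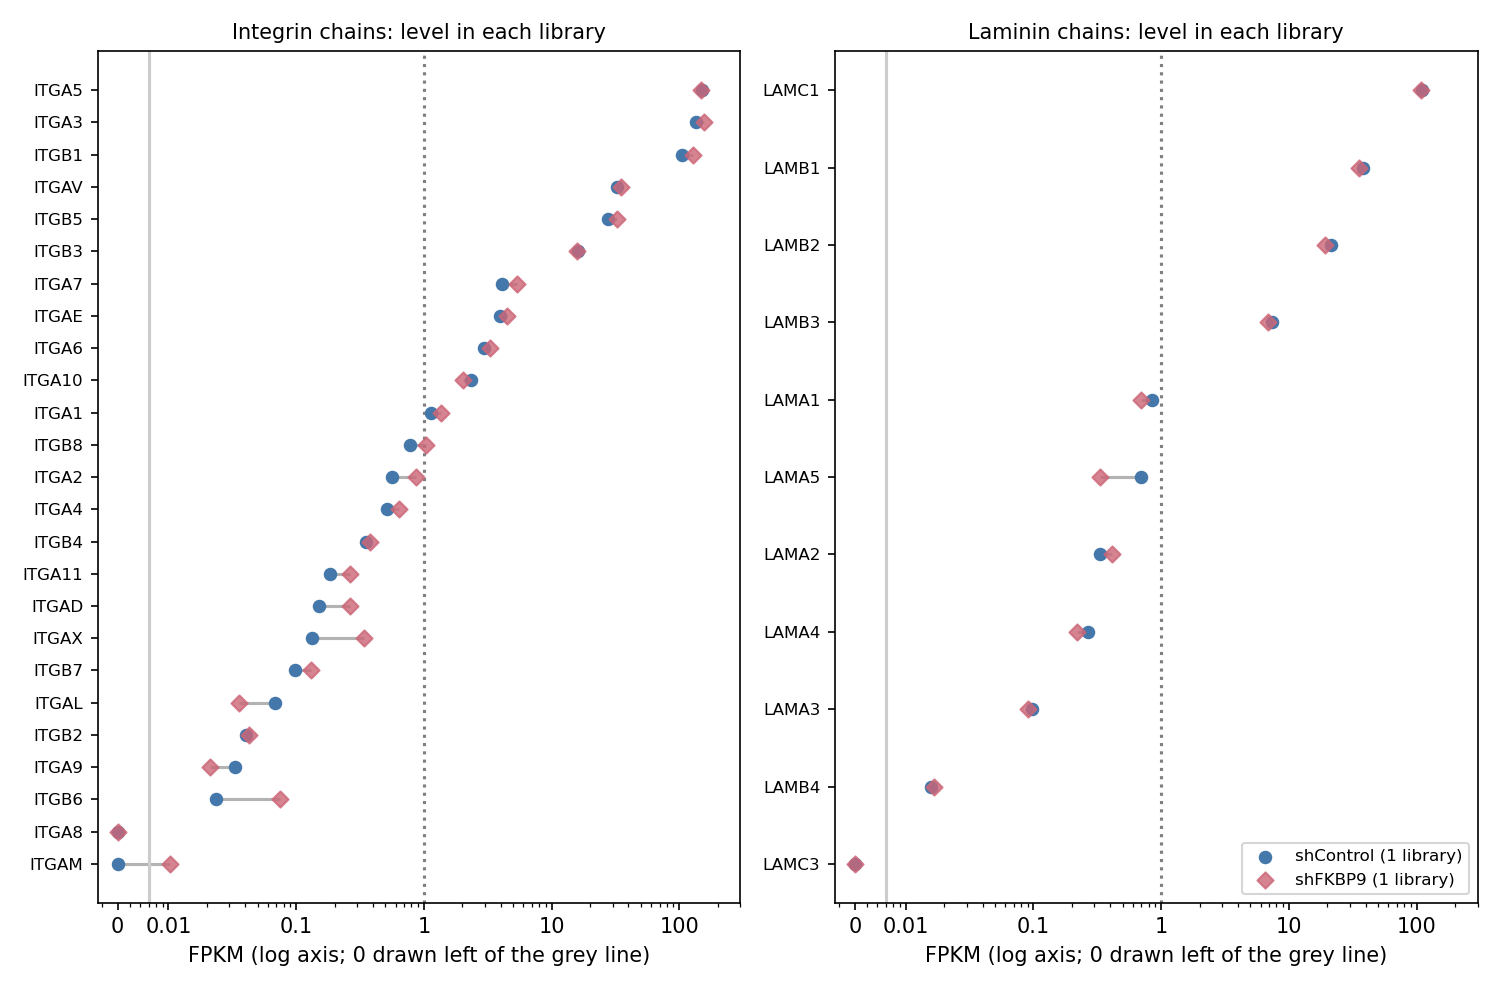
FPKM of 25 integrin chains (left) and 11 laminin chains (right) in the shControl library (circles) and the shFKBP9 library (diamonds), on a log axis with 0 drawn left of the grey line and 1 FPKM dotted. The chains spread from 0 to over 150 FPKM, and the gap between the libraries is small beside the gaps between chains.

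Integrin chains known from leukocytes were scarce. ITGAX, the alpha chain of dendritic cells and macrophages on chromosome 16 from 31355134 to 31382997, had 17 fragments (0.133 FPKM) in shControl and 41 (0.338 FPKM) in shFKBP9. Its log2 ratio was 0.91, or 1.35 with nothing added (0.50 to 2.26), the only interval off 0 in this group. Of the 2161 protein-coding genes with 10 to under 100 fragments, 2.87% had a log2 ratio as high. Its neighbour ITGAD had 12 and 20 fragments, and ITGAM, on its other side, 0 and 1. ITGAL had 8 and 4 fragments, and the beta chain with which these alpha chains pair, ITGB2, had 5 in each library. ITGB7 had 8 and 10. ITGAE was the exception in level, with 3.96 and 4.44 FPKM and an interval from -0.02 to 0.35. Its beta partner ITGB7 was at 0.0986 and 0.130 FPKM. However, 32.1% of the windows of the ITGB7 transcript also occur in ZNF740, which overlaps it and had 886 and 839 fragments.

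Of 13 leukocyte markers, 6 had 0 fragments in both libraries, among them PTPRC, CD3D, CD3E, MS4A1 and SPI1. The list summed to 20.5 FPKM in shControl and 24.3 in shFKBP9, nearly all of it from LCP1 (9.08 and 11.9 FPKM), CSF1R (8.30 and 9.67) and CORO1A (2.18 and 1.42). Of the 5 markers with at least 10 fragments, the interval lay above 0 for 2, LCP1 and CSF1R, and below 0 for 1, CORO1A, against 13.8% and 16.9% of all genes. LCP1 and CSF1R had 1870 and 1629 fragments together, and of all genes with 1000 to under 10000 fragments 22.8% lay above 0. The log2 ratio was above 0 for 3 of the 5 and below 0 for 2. Their part in the ITGAX result was not tested.

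**Figure D3:**
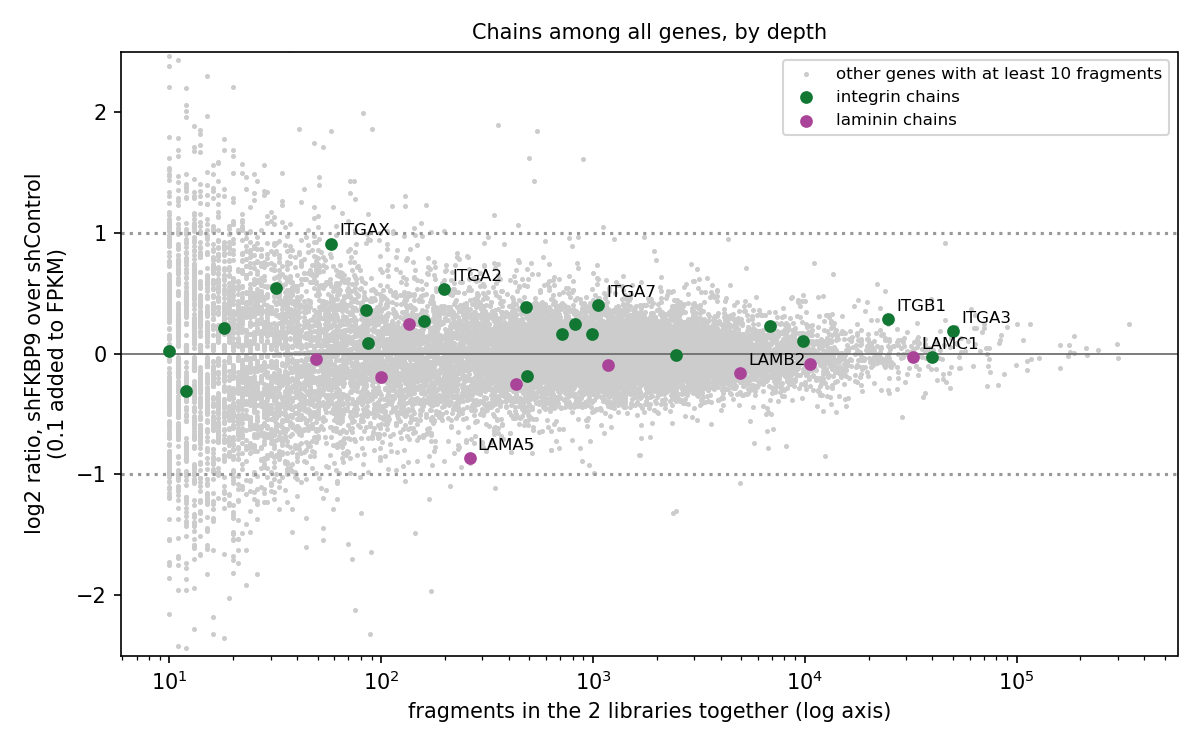
The log2 ratio with 0.1 added to FPKM against the fragments in the libraries together (log axis), for all 17105 genes with at least 10 fragments (grey), 30 integrin (green) and laminin (purple) chains, with 19 genes outside the vertical axis. ITGAX and LAMA5 lie toward the edge of genes of their depth, and no chain crosses the dotted lines at 2-fold.

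Among laminins, the beta and gamma chains were abundant and every alpha chain stayed under 1 FPKM in both libraries. The 5 alpha chains summed to 2.23 FPKM in shControl and 1.75 in shFKBP9, against 66.7 and 61.6 for the 4 beta chains and 112 and 109 for the 3 gamma chains. The alpha sum was thus 0.0200 and 0.0161 of the gamma sum. A laminin trimer holds 1 chain of each class, and FPKM is per length, although the transcript actually made may be shorter than the gene length of the table.

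LAMA1, the alpha chain of the embryonic laminin, had 243 fragments (0.846 FPKM) in shControl and 189 (0.694 FPKM) in shFKBP9, a log2 ratio of -0.25 (-0.57 to -0.0056). LAMA5, described above, was the other alpha chain with an interval below 0. LAMA1 exceeded LAMA5 1.22-fold in shControl and 2.08-fold in shFKBP9. LAMA2, the muscle and nerve alpha chain, was at 0.331 and 0.411 FPKM, with an interval that included 0. It was the only laminin with at least 10 fragments whose log2 ratio was above 0. LAMA4, the vascular alpha chain, was at 0.267 and 0.221 FPKM, and LAMA3 had 26 and 23 fragments.

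LAMB1, the widespread beta chain, lies on chromosome 7 from 107923799 to 108003255 and had 5582 fragments (37.9 FPKM) and 4974 (35.6 FPKM), a log2 ratio of -0.09 (-0.15 to -0.03). LAMB2, the beta chain of synaptic and kidney laminins, had 2660 fragments (21.4 FPKM) and 2256 (19.1 FPKM), a log2 ratio of -0.16 (-0.24 to -0.08). Ratios as low as that of LAMB2 were found for 19.9% of protein-coding genes of its depth. LAMB4 had 2 fragments in each library. LAMC3 had 0 in both, where 3 fragments would be 0.0218 and 0.0230 FPKM.

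LAMA3 and LAMB3, chains of the epidermal laminin-332, were present in unequal amounts. LAMB3 had 626 fragments (7.37 FPKM) and 554 (6.88 FPKM), with an interval that included 0 (-0.27 to 0.07). LAMB3 exceeded LAMA3 75.4-fold in both. The FPKM of 11 keratinocyte markers summed to 30.6 and 33.1. Of the 7 with at least 10 fragments, 2 had an interval above 0, KRT14 with 1 and 24 fragments and KRT17 with 0 and 14, and 0 had one below, against 13.8% and 16.9% of all genes. Of all 11, 9 had a ratio above 1 and 1 a ratio below, and KRT5 had 8 and 17 fragments, SFN 2 and 8, and KRT6A 0 and 7. KRT10, at 30.2 and 31.4 FPKM, held nearly all of that sum, KRT1 was at 0 in both libraries, and TP63 had 6 fragments in each. The part of keratinocyte markers in the laminin values was not tested.

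The chains of a class held unequal shares of its level. ITGA5 and ITGA3 made up 44.9% and 40.5% of the summed alpha integrin FPKM in shControl and 41.5% and 43.4% in shFKBP9. ITGB1 made up 69.9% of the beta integrin FPKM in shControl and 71.8% in shFKBP9, followed by ITGB5 with 18.6% and 18.3%. LAMB1 held 56.8% and 57.7% of the beta laminin FPKM, and LAMC1 99.0% and 99.3% of the gamma laminin FPKM. Of the alpha laminin FPKM, whose chains were all scarce, 37.9% and 39.6% lay on LAMA1, 31.0% and 19.1% on LAMA5 and 14.8% and 23.4% on LAMA2. The alpha integrins together exceeded the beta integrins 2.24-fold in shControl and 2.01-fold in shFKBP9. Over all beta integrins the summed FPKM was 150 and 178, and over all alpha integrins 336 and 357.

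**Figure D4:**
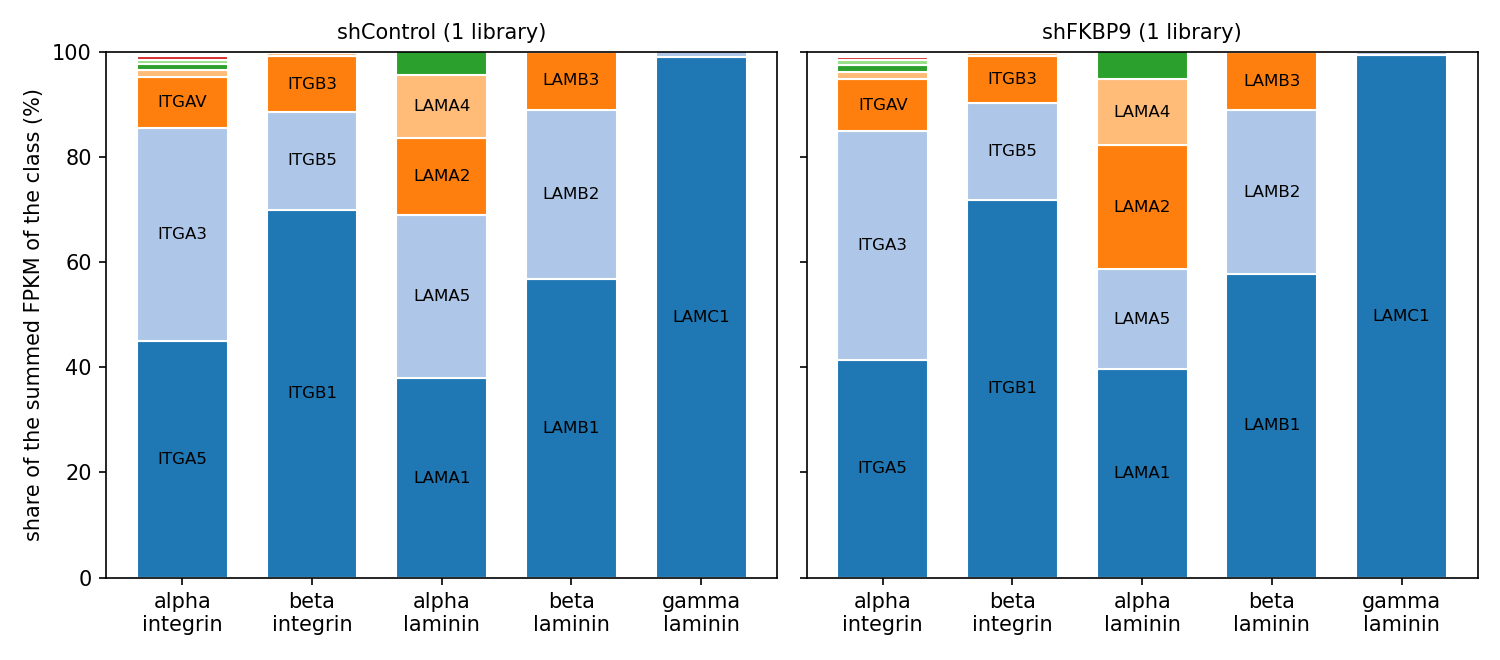
Share of each chain in the summed FPKM of its class, in the shControl library (left) and the shFKBP9 library (right), with chains over 6% named. Shares differ most among the scarce alpha laminins, where LAMA5 holds 31.0% and 19.1% of its class. Among alpha integrins ITGA5 holds 44.9% and 41.5% and ITGA3 40.5% and 43.4%, so that the leading chain differs between the libraries.

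Genes that work with the chains were looked at as lists. Most adaptors, ligands and other receptors with at least 10 fragments had at least 1000, where intervals are narrow. Of all genes with 1000 to under 10000 fragments 22.8% had an interval above 0 and 28.4% one below, and of all genes with at least 10000 fragments 35.1% and 41.8%. The list of 28 integrin adaptors holds proteins that link beta chains to actin, kinases such as PTK2 and SRC, and regulators such as SHARPIN and KRIT1, and 26 of them had at least 10 fragments. Their interval lay above 0 for 6 and below 0 for 11, against 13.8% and 16.9% of all genes with that many fragments. Among the 22 with at least 1 FPKM the median log2 ratio was -0.05. FERMT2, the widespread kindlin that binds beta tails, was the highest of them at 0.25 (1850 and 2091 fragments), and FERMT3, the kindlin of blood cells, the lowest at -0.40 (267 and 190 fragments).

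Of the other integrin ligands, 15 of 17 symbols were in the table, the others being newer names of CYR61 and CTGF, which it holds, and 12 had at least 10 fragments. Their interval lay above 0 for 7 and below 0 for 0, against the same 13.8% and 16.9%, and the 12 with at least 1 FPKM had a median log2 ratio of 0.17. THBS1, thrombospondin 1, was the highest at 0.95 (95% interval 0.80 to 1.14, 437 and 813 fragments), and EDIL3, an RGD protein, the lowest at -0.04 (5245 and 4835 fragments). FN1, fibronectin, the ligand of the ITGA5 and ITGB1 pair, had 305 and 307 FPKM (0.01, -0.0047 to 0.02). Of the 7 basement membrane partners of laminins with at least 10 fragments, 2 had an interval above 0 and 3 below, against 13.8% and 16.9% of all genes. Among the 4 with at least 1 FPKM, HSPG2, perlecan, was lowest at -0.38 (12.1 and 9.26 FPKM), and SPARC, a collagen-binding glycoprotein, highest at 0.25 (379 and 449 FPKM).

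Of 9 genes listed as other laminin receptors or their partners, 3 had an interval above 0 and 3 below, and 30.8% of all genes lay off 0 in either direction. DAG1, dystroglycan, was the lowest of those with at least 1 FPKM at -0.32 (22.2 and 17.7 FPKM), and SDC4, a syndecan, the highest at 0.14 (76.8 and 84.9 FPKM). In these 4 lists 0 genes were past 2-fold in either direction, against 0.406% of all protein-coding genes with at least 1 FPKM, so that a count of 0 is near the background.

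**Figure D5:**
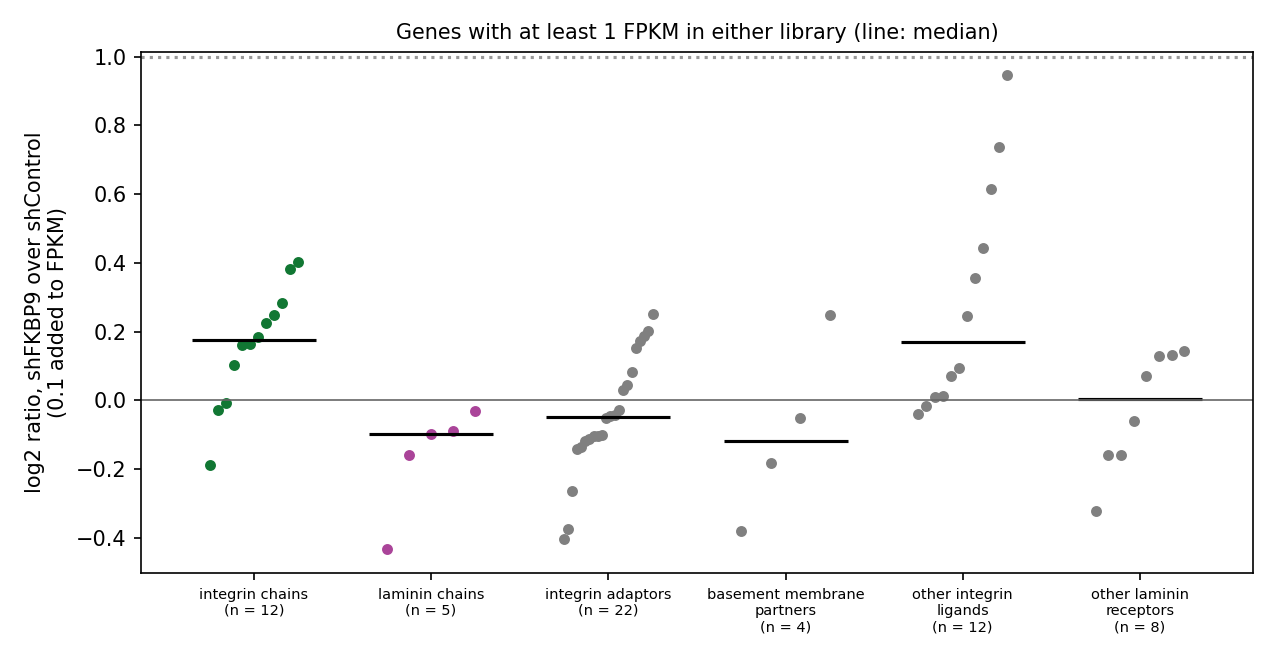
The log2 ratio with 0.1 added to FPKM of integrin chains, laminin chains and 4 lists of genes that work with them, for genes that reached 1 FPKM. Each point is a gene, lines are medians, and the dotted line is 2-fold. All 5 laminin chains lie below 0, and 9 of 12 integrin chains lie above it.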

How the data were processed

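By the submitters' processing notes, the authors used HISAT2 2.0.5 against hg38 and featureCounts 1.5.0-p3, and deposited FPKM, fragments scaled by gene length and library size, for 1 library per condition. Strand use, multi-mapped reads and the annotation release are not given in the sources used here, so reads of overlapping genes cannot be told apart, and FPKM per gene does not separate splice forms. FPKM times gene length was divided by the smallest step of the library, which gave whole numbers (tolerance 0.001) for 100% of values above 0. A fragment on a gene of 1 kilobase is 0.0552 FPKM in shControl and 0.0582 in shFKBP9.

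The log2 ratio used FPKM with 0.1 added. A chain was past 2-fold when the log2 ratio exceeded 1 in size and 1 FPKM was reached in either library. For genes with at least 10 fragments together, 95% intervals were taken by the exact Clopper-Pearson method. The calculations were tested on simulated data. The authors' edgeR analysis was not repeated, because 1 library per condition gives no spread. Windows of 100 bases and overlaps came from GENCODE release 44, whose genes overlapped all 37 chains at the deposited positions.

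All chains, FKBP9, the ends of each list and its genes past 2-fold, and overlapping genes with at least 10 fragments were eligible to be named. FN1, VIM, CD44, GFAP, SOX2, COL1A1, ITGA2B, ITGBL1, ITGB1BP1, ITGB3BP, PTK2, SRC, SHARPIN, KRIT1 and the marker genes were named after their values were seen. ICAP, an older name of ITGB1BP1, was left out of the adaptor list. Of the genes counted, 1 chain and several markers are not reported here by name. The members and lists were chosen with earlier results of these data known. The alternatives were 1 or 0.01 added, other minima, scaling by the median ratio or to TPM, an exact binomial test with Benjamini-Hochberg adjustment, and shares of fragments. Calculations ran in Python 3.11.15 (scipy 1.17.1, numpy 2.4.6, pandas 2.3.3) and plots in matplotlib 3.10.9.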

Additional observations from a re-analysis of the deposited data

How the results depend on the processing

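With 1 library per condition, leaving out a replicate could not be run, and the intervals cover counting error only. The number of chains past 2-fold stayed at 0 in both directions under every addition, minimum and scaling tried, each changed alone. Scaling by the median ratio shifted log2 ratios by 0.02, less for low genes because of the 0.1 added, and left 9 chains with an interval above 0 but 4 below in place of 7. An exact binomial test with adjusted p-values under 0.05 between the libraries, not the conditions, kept 9 above and 3 below, LAMA5, LAMB1 and LAMB2. ITGA5, LAMC1 and LAMA1 were lost under both. With 1 added to FPKM, FKBP9 was at -3.16 in place of -3.38, LAMA5 at -0.34 and ITGAX at 0.24. With 0.01 added, LAMA5 was at -1.03 and ITGAX at 1.28, past 2-fold in size but under the 1 FPKM minimum. By fragments in place of FPKM, the share of ITGA5 was 39.9% and 36.5%, with ITGA3 then ahead of it in both libraries, of LAMA1 42.9% and 46.0%, of LAMB1 62.9% and 63.9%, and of LAMC1 99.2% and 99.4% in shControl and shFKBP9, because division by gene length is left out. No paired analysis was possible because each condition has 1 library.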

Other observations

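Of the rows named for an integrin or laminin gene but outside the rule, the binding-protein genes ITGB1BP1 and ITGB3BP held the most fragments, 2504 and 347 in shControl and 2328 and 336 in shFKBP9. ITGBL1, which encodes a protein with integrin beta-like repeats, had 58 fragments in shControl and 73 in shFKBP9, with an interval of the log2 ratio from -0.11 to 0.93. ITGA2B had 0 and 1. The antisense RNA LAMC1-AS1 had 17 and 26 fragments and the divergent transcript ITGB1-DT 40 and 49, and the intervals of both included 0. Among genes overlapping a chain on the opposite strand, HASPIN within ITGAE had 240 and 188 fragments (log2 ratio -0.27, 95% interval -0.56 to 0.0059).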
